A study of Mus musculus with 4 samples.

Results

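The constitutive proteasome subunits are the 36 genes that encode the standard 20S core particle, the 19S regulatory particle with 3 chaperones of its assembly, and the activators PA28 gamma and PA200. They were chosen by name, and each was read from the non-control probes whose annotated transcript is a RefSeq transcript of the gene, which gave 45 of the 55681 probes on the array. The rule itself uses no measured value, although the genes were picked with earlier results of these data known. Gene expression was compared between APPswe/PS1dE9 cultures, from C57BL/6 mice with familial Alzheimer's disease transgenes, and wild-type (WT) C57BL/6 cultures. Per the labels, telencephalic precursors from day 13 embryos of either genotype were grown with EGF and FGF2 into neurospheres for 5 days and then differentiated for 7 days on poly-L-lysine and laminin without these factors. The labels name no other treatment that distinguished the genotypes. The RNA of a culture of each genotype was hybridised together on each of 4 two-colour Agilent arrays. Replicates 1 and 2 had the APPswe/PS1dE9 RNA in Cy3, and the dyes were swapped for replicates 3 and 4. The promoter of the transgenes and the litters of the cultures are not given in the sources used here. The 4 replicates of each genotype are named biological, without the animals they came from, so the p-values cover only the variation among these arrays, which may be technical.

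The proteasome is the protease that degrades most short-lived and misfolded proteins of the cytosol and nucleus after they are tagged with ubiquitin. Its core is a barrel of stacked rings in which alpha subunits form the gate and beta subunits form the chamber, and Psmb5, Psmb6 and Psmb7 carry the chymotrypsin-like, caspase-like and trypsin-like active sites. The regulatory particle binds ubiquitinated substrates, removes the ubiquitin, and unfolds and feeds the chain into the core by an ATPase ring. When cells meet interferon, Psmb8, Psmb9 and Psmb10 can replace Psmb5, Psmb6 and Psmb7 in newly made particles, which are then called immunoproteasomes. Microglia, the macrophages of brain tissue, make immunoproteasome subunits readily. The genes of the standard particle are expressed in nearly all cells, and the transcription factor NRF1 raises them together, through antioxidant response elements, when proteasome activity is low.

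Promoters of a pair of standard active-site genes and of the immunoproteasome genes that replace them are shown. Psmb7 and its counterpart Psmb10 are not shown, as Psmb7 was not in the promoter source. Any bearing of these sequences on the genotype ratios was not tested. All sequences are from RefSeq on GRCm38.p6, and each is 120 bases of the gene's own strand from before its transcription start. Capitals mark TGACNNNGC, the core of the antioxidant response element.
Psmb5, chr14:54617996-54618115, minus strand: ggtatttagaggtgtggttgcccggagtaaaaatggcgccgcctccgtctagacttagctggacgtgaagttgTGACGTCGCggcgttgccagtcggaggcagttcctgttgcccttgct
Psmb6, chr11:70525237-70525356, plus strand: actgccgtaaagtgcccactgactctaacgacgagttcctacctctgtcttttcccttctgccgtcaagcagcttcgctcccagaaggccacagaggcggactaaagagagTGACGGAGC
Psmb8, chr17:34198075-34198194, plus strand: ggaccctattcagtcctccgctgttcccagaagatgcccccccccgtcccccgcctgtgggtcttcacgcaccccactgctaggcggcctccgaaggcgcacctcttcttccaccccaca
Psmb9, chr17:34187331-34187450, minus strand: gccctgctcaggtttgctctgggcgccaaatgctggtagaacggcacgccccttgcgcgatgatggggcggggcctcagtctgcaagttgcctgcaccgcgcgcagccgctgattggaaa
The search covered both strands from 250 bases before to 50 bases after each start, and 30 of the 36 genes, with 32 starts, were in the RefSeq table. TGACNNNGC stood in 6 of these 32 windows (18.8%), against 12.4% of all 32851 windows of the same length. The 6 genes were Psmb5, Psmb6, Psmc6, Psmd12, Psmd9 and Psme4. In Psmb5 the match TGACGTCGC ran from base -47 to base -39 from the start, and in Psmb6 the match TGACGGAGC ran from base -9 to base -1. None of the 6 windows of the 5 immunoproteasome genes held these letters. The sequence GAAA followed by 2 bases of any kind and GAAA again, a core that interferon regulatory factors can bind, stood in 3 of the 32 windows (9.38%), those of Psmb3, Psmd4 and Psmd9, against 3.44% of all windows, and in 1 of the 6 immunoproteasome windows, that of Psme1. In Psmd9, the promoter that held both motifs, they did not overlap. A match describes the letters of the window and was not tested as a binding site.

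The measured quantity is the log2 ratio of APPswe/PS1dE9 over WT on an array, and a fitted ratio is given ± SE over the 4 arrays. Across the array, 20628 features (13703 named genes, and unnamed transcripts) were tested with limma. At a Benjamini-Hochberg adjusted p under 0.05, 1699 were higher in APPswe/PS1dE9 (8.24%) and 471 lower (2.28%). The total of 2170 fell to 547 without replicate 3 and to 376 without replicate 4, and with median centring in place of loess 1312 were higher and 1313 lower. Between 47.5% and 59.6% of spots were well above background per channel, and 0 probe spots were saturated. App, the gene of the amyloid precursor, was at 0.23, 0.27, 0.00060 and -0.03 on replicates 1 to 4 (0.12 ± 0.06, adjusted p = 0.280 by limma); whether its probe reads the transgene is not given in the sources used here. Xist, the X-inactivation RNA of female cells, was at -2.85 on replicate 1 and 3.40 on replicate 3, against -0.41 and -0.22 on replicates 2 and 4, so that the paired cultures of replicates 1 and 3 differed in it. On replicates 2 and 4 alone, 18 of the 36 proteasome genes lay below 0 and 18 above, and none was called (lowest adjusted p = 0.677 by limma).
Of 10 microglia and macrophage markers, 9 were higher in APPswe/PS1dE9, with a median log2 ratio of 2.07. Their summed signal was between 12525 and 16694 intensity units in the APPswe/PS1dE9 channel and between 8786 and 10843 in the WT channel. A sum of intensities is weighted to the brightest probes, so it does not measure the same change as the median ratio. C1qa is missing from both sums and from its fit on replicate 4, where its spot was an outlier. In WT, Tyrobp and Trem2 were well above background on 1 array each and C1qa and Cx3cr1 on 2 each, so these 4 passed the filter on dim probes only through the APPswe/PS1dE9 channel. Of the 6 markers well above background in WT on all arrays, 5 were higher, with a median of 1.73. Of 7 astrocyte markers 4 were higher (median 0.43), and of 7 neuron markers 3 were lower (median -0.31). None of 6 oligodendrocyte lineage markers passed, 2 of 6 progenitor and cycling markers were higher, and 1 of 3 measured endothelial and mural markers was lower. The part of these marker differences in the proteasome ratios was not tested, and in bulk RNA fewer cells of a type and less RNA per cell cannot be told apart.

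No standard proteasome gene passed the test. Of the 36 members, 0 were called in the limma fit at an adjusted p under 0.05, beside 10.5% of all features. The lowest adjusted p among them was 0.0831, for Psmd14. At an unadjusted p under 0.05 there were 3 members, namely Psmb2, Psmc6 and Psmd14, beside 25.6% of all features. The fitted ratios lay between -0.25 for Psmb2, a fold of 0.843, and 0.14 for Psmb7. Their median was -0.02, beside 0.01 for all features. There were 22 members below 0 and 14 above, beside 9605 and 11023 of the 20628 features. Without loess, the correction of intensity-dependent dye bias, and with each array centred on its median, all 36 lay below 0, at a median of -0.19 beside -0.074 for all features, and 2 members, Psmb2 and Psmd14, were called lower. With neither loess nor centring, 31 of the 36 lay below 0, at a median of -0.082 beside 0.035, and none was called.

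The ratios of the members were also close to each other. Their SD was 0.09, beside 0.25 for all features, and their interquartile range ran from -0.06 to 0.03, beside -0.08 to 0.12. This comparison was not made at like brightness. Of the 36 members, 34 had a probe brighter than the median feature, and the median member was brighter than 88.7% of features. In the loess fit no member was beyond 0.25 in size on either side of 0, beside 16.6% of all features. This depended on the processing. With the scanner's processed signals Psmb2, Psmd9 and Psme4 were at -0.29, -0.29 and -0.33, and with median centring and no loess the lowest member was at -0.37. All 36 had a 95% interval within 0.5 of 0, as had 87% of all features, and the widest bounds were -0.46 and 0.29. These intervals leave room for a fall or rise of the size of the point estimates, so a p above the threshold does not show equal expression. Beyond 0.15 in size there were 5 members, beside 33.6% of all features, and all 5 lay below 0, namely Psmb2, Psmd14, Psme4, Psmd9 and Psmc6. For 25 of the 36 the fitted ratio was smaller than 1 SE. The plot of all members by array shows this spread, and the distribution over all features shows the members near its centre.

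**Figure D1:**
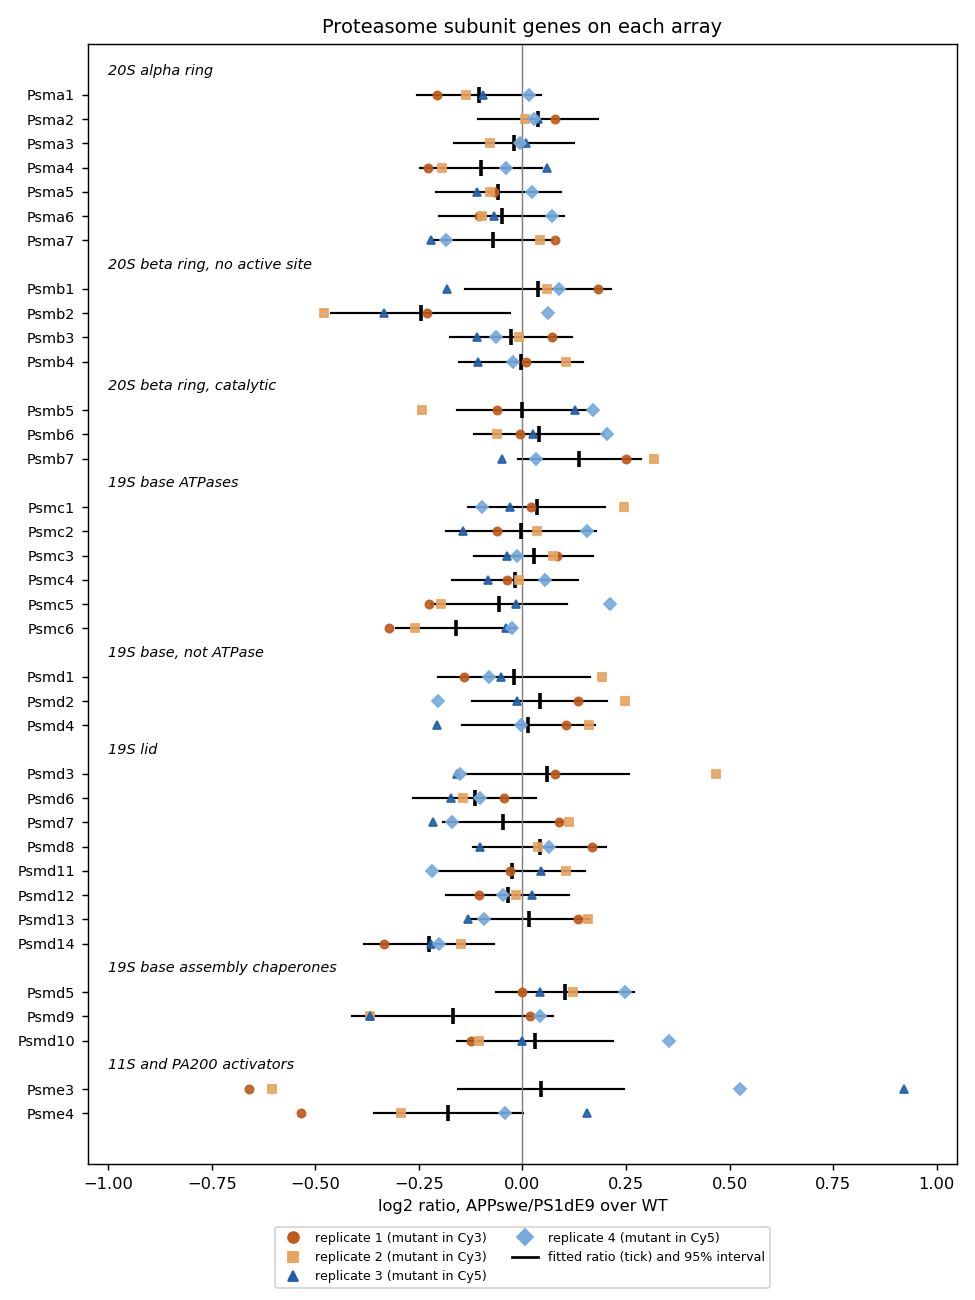
Log2 ratio of APPswe/PS1dE9 over WT (x axis) for each of the 36 genes (y axis, grouped by their place in the particle). Symbols are the 4 arrays, black ticks the fitted ratio and black lines its 95% interval. Most genes have arrays on both sides of 0; Psmd14 has all 4 arrays below 0, and Psme3 has replicates 1 and 2 far below 0 and replicates 3 and 4 far above.

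**Figure D2:**
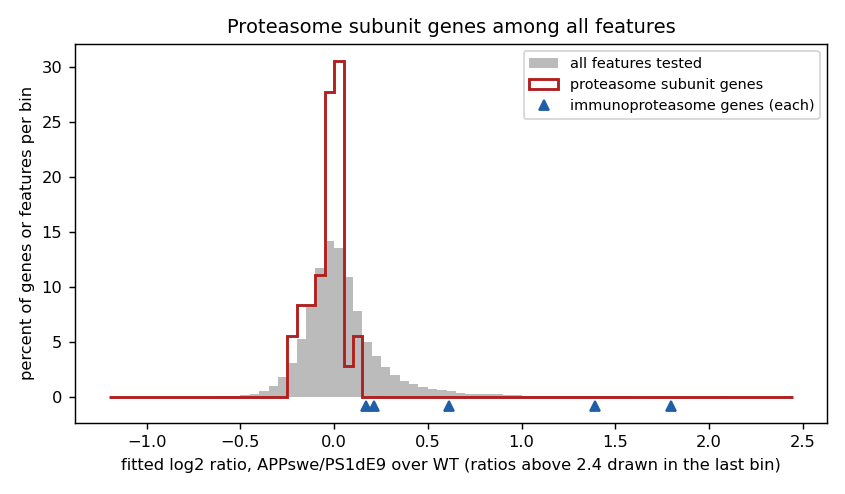
Percent of genes or features (y axis) in bins of fitted log2 ratio (x axis), for all 20628 features (grey) and for the 36 proteasome genes (red line), with the 5 immunoproteasome genes as triangles. The proteasome genes lie between -0.25 and 0.14, and the immunoproteasome genes lie to their right, up to 1.80.

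All 36 members were well above background in both channels on all 4 arrays, as were 83.9% of all features. The ratios of dim members still depended on the signal used. Psme4 was at -0.18 in this fit, and at -0.33 with the scanner's processed signals. Across the 36 members the SE ranged from 0.0588 to 0.0997, with a median of 0.06, beside 0.07 for all features. The larger ratios were found among the dimmer probes. Among the 18 members with the brighter probes the largest ratio was 0.11 in size, and among the 18 with the dimmer probes it was 0.25. The median sizes lay closer together, at 0.036 for the brighter and 0.053 for the dimmer members. Across the 36 genes, Spearman's rho between mean signal and the size of the ratio was -0.52. The genes share the same 4 arrays, and probe brightness does not order the amounts of different transcripts.

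Loess brings the ratios of each array near 0 at every brightness, so a centre near 0 is in part set by the processing. Without loess, the median of the members' fitted ratios was -0.19 with median centring and -0.082 with no centring. On single arrays after loess, the median of the members was -0.02, -0.0077, -0.06 and -0.0050 on replicates 1 to 4. The median of all features was between -0.01 and 0.03. The SD of the members within an array was between 0.16 and 0.22, beside 0.31 to 0.35 for all features. A single sign on all 4 arrays was seen in 4 members (11.1%), namely Psma2, Psmc6, Psmd6 and Psmd14, beside 28.6% of all features.

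The alpha ring, whose subunits gate the entry of the core, had 6 of its 7 genes below 0, with a median of -0.06. None passed the test. Psma1, at -0.21, -0.14, -0.10 and 0.02 on replicates 1 to 4, had the lowest fitted ratio of the ring (-0.11 ± 0.06, adjusted p = 0.346 by limma). Psma2, with 0.08, 0.0068, 0.04 and 0.03, had the highest, 0.04 ± 0.06. Its 4 arrays all lay above 0 but within 0.08 of it. Psma7 split by array, with 0.08 and 0.04 on replicates 1 and 2 and -0.22 and -0.19 on replicates 3 and 4. The summed signal of the ring was between 64693 and 70234 intensity units in APPswe/PS1dE9 and between 67356 and 71693 in WT, ranges that overlapped.

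In the beta ring, 4 subunits carry no active site. Psmb1, Psmb3 and Psmb4 had fitted ratios of 0.04, -0.03 and -0.0046. Psmb2 had the lowest ratio of all 36 genes. Its log2 ratios were -0.23, -0.48, -0.33 and 0.06 on replicates 1 to 4. It was lower in APPswe/PS1dE9 on 3 of 4 arrays and slightly higher on replicate 4. The fitted ratio was -0.25 ± 0.09, with a 95% interval from -0.46 to -0.03 and an adjusted p of 0.149 in the limma fit. Its log2 signal averaged 9.75 ± 0.13 (SD, n = 4) in the APPswe/PS1dE9 channel and 10.0 ± 0.12 in the WT channel.

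The standard active-site subunits did not pass the test. Psmb5, the chymotrypsin-like subunit and the main target of proteasome inhibitor drugs, was at -0.06, -0.24, 0.13 and 0.17 on replicates 1 to 4. Replicates 1 and 2 lay below 0 and replicates 3 and 4 above, and the fitted ratio was -0.0020 ± 0.06 (adjusted p = 0.990 by limma, 95% interval -0.16 to 0.15). Psmb6, the caspase-like subunit, was at -0.0064, -0.06, 0.03 and 0.21. Its fitted ratio was 0.04 ± 0.06 (adjusted p = 0.745, limma; 95% interval -0.12 to 0.20), with replicate 4 the only array beyond 0.1 in size. Psmb7, the trypsin-like subunit, was at 0.25, 0.32, -0.05 and 0.03, so the 2 arrays with APPswe/PS1dE9 in Cy3 were high and the other two lay near 0. It had the highest fitted ratio of the 36, 0.14 ± 0.06 (adjusted p = 0.224, limma; 95% interval -0.01 to 0.29). With median centring and no loess it was at -0.0016.

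Set against these, the immunoproteasome subunits were higher in APPswe/PS1dE9. Psmb8 was at 1.47, 1.64, 1.75 and 2.33 on replicates 1 to 4 (1.80 ± 0.10, adjusted p = 0.000446 by limma). Psmb9 was at 0.958, 1.504, 1.422 and 1.689 (1.39 ± 0.10, adjusted p = 0.00100 by limma), and Psmb10 at 0.61, 0.61, 0.49 and 0.76 (0.62 ± 0.07, adjusted p = 0.00460 by limma). The WT channel was well above background for Psmb8 on 1 of 4 arrays and for Psmb9 on 2 of 4. Both therefore passed the filter on dim probes only through the APPswe/PS1dE9 channel, where they were high, so that their calls are not independent of the filter. The offset of 50 added to every signal also pulls such ratios toward 0. Psmb10 was well above background in both channels on all 4 arrays. Psme1 and Psme2, the interferon-inducible PA28 activator subunits, were at 0.21 ± 0.06 and 0.17 ± 0.07 and did not pass (adjusted p = 0.0879 and 0.202 by limma), so 3 of the 5 immunoproteasome genes were called higher. Psmb10 was not called without replicate 4 (adjusted p = 0.0566 by limma) or on replicates 2 and 4 alone (0.0501), and on the Cy3 arrays neither Psmb9 nor Psmb10 was (0.0709 for each).

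The difference between each immunoproteasome subunit and the standard subunit it replaces was taken within each array. For Psmb8 minus Psmb5 it was 1.53, 1.89, 1.62 and 2.16 on replicates 1 to 4, a mean of 1.80 ± 0.28 (SD, n = 4 arrays). For Psmb9 minus Psmb6 the difference was 0.96, 1.57, 1.40 and 1.48, a mean of 1.35 ± 0.27 (SD). For Psmb10 minus Psmb7 it was 0.36, 0.29, 0.54 and 0.73, a mean of 0.48 ± 0.20 (SD), or 1.39-fold. Each of the 3 differences was positive on 4 of 4 arrays. The exact two-sided sign-flip permutation test gave p = 0.125 for each, also after adjustment over the 3 pairs, which is the smallest p that 4 arrays allow. Psmb8 and Psmb9 passed the filter on dim probes only through the APPswe/PS1dE9 channel. The signs of their differences, and the test on them, are thus not independent of the filter. With the scanner's processed signals the means for Psmb8 and Psmb9 were 2.99 and 2.16, so no fold is given for them. The microglia markers given above were also higher in APPswe/PS1dE9, with medians of 2.11, 1.96, 2.03 and 2.15 on replicates 1 to 4. Some of these markers passed the filter on dim probes only through the APPswe/PS1dE9 channel. Over the markers well above background in WT on all arrays, the median fitted ratio was 1.73. The part of the markers in the differences between paired subunits was not tested.

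The channel signals of the standard partners overlapped between the genotypes on the 4 arrays. The log2 signal of the Psmb5 probe averaged 14.5 ± 0.08 (SD, n = 4) in APPswe/PS1dE9 and 14.5 ± 0.11 in WT, and that of Psmb6 14.4 ± 0.09 and 14.4 ± 0.15. The Psmb7 probe averaged 11.3 ± 0.11 and 11.1 ± 0.21. For Psmb8 the APPswe/PS1dE9 channel averaged 8.57 ± 0.44 and the WT channel 6.77 ± 0.11, and the channels did not overlap. The WT channel of Psmb8 was well above background on 1 array only. The probe passed the filter through the APPswe/PS1dE9 channel, so this gap is not independent of the filter. Each pair of values belongs to 1 probe and is not compared with other probes.

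**Figure D3:**
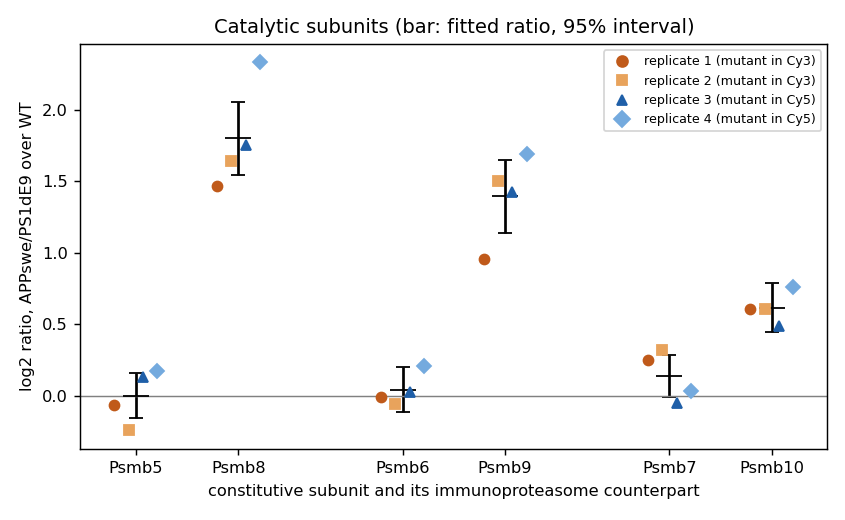
Log2 ratio of APPswe/PS1dE9 over WT (y axis) for each standard active-site subunit and the immunoproteasome subunit that replaces it (x axis). Symbols are the 4 arrays, and black bars the fitted ratio with its 95% interval. Psmb8 and Psmb9 lie between 0.96 and 2.33 on all arrays, while Psmb5, Psmb6 and Psmb7 lie between -0.24 and 0.32.

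In the base of the 19S particle, the ATPases Psmc1 to Psmc6 form the ring that unfolds substrates. Their fitted ratios ran from -0.16 to 0.03, with a median of -0.01. Psmc6 was the lowest, at -0.32, -0.26, -0.04 and -0.03 on replicates 1 to 4. It was below 0 on every array, but replicates 3 and 4 lay close to 0. The fitted ratio was -0.16 ± 0.06 (adjusted p = 0.154 by limma), and it was singled out after its values were seen. Psmc5 ran from -0.22 on replicate 1 to 0.21 on replicate 4 (-0.06 ± 0.07). Psmc3 stayed between -0.04 and 0.08 on the 4 arrays.

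The base also holds the scaffold subunits Psmd1 and Psmd2 and the ubiquitin receptor Psmd4. Their fitted ratios were -0.02, 0.04 and 0.01. Psmd2 was at 0.13, 0.25, -0.01 and -0.20, and Psmd4 at 0.10, 0.16, -0.21 and -0.0036 on replicates 1 to 4. Both were above 0 on replicates 1 and 2 and below 0 on replicates 3 and 4.

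The lid had a median of -0.03 over its 8 genes, 5 of them below 0. Psmd14, the metalloprotease that cuts ubiquitin chains off the substrate as it enters, was the member nearest the threshold. It was at -0.33, -0.15, -0.22 and -0.20 on replicates 1 to 4. All 4 arrays were below 0, and both dye orientations gave like means, -0.24 and -0.21. The fitted ratio was -0.23 ± 0.06, a fold of 0.855, with a 95% interval from -0.38 to -0.07 and an adjusted p of 0.0831 in the limma fit. Its log2 signal averaged 10.7 ± 0.11 (SD, n = 4) in APPswe/PS1dE9 and 10.9 ± 0.11 in WT. Psmd14 was singled out after its values were seen.

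Psmd6, a scaffold subunit of the lid, was also below 0 on every array, at -0.04, -0.14, -0.17 and -0.10 (-0.12 ± 0.06, adjusted p = 0.303 by limma). Psmd3, another scaffold subunit, was at 0.08, 0.47, -0.16 and -0.15, and its value on replicate 2 was the highest of any member on that array. Over the lid as a whole the median was 0.02 and 0.07 on replicates 1 and 2 and -0.14 and -0.13 on replicates 3 and 4. Psmd7, the inactive partner of Psmd14, had the same signs, with 0.09, 0.11, -0.22 and -0.17.

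Psmd5, Psmd9 and Psmd10 are chaperones that help to build the base and leave before the particle is complete. Psmd5 was at -0.0014, 0.12, 0.04 and 0.25 on replicates 1 to 4 (0.10 ± 0.07). Psmd9 was at 0.02, -0.37, -0.37 and 0.04, with replicates 2 and 3 low and the other two near 0 (-0.17 ± 0.10, adjusted p = 0.351 by limma, the largest SE of the 36). Psmd10, also known as the oncoprotein gankyrin, was at -0.12, -0.11, -0.0013 and 0.35 (0.03 ± 0.08).

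The activators differed most between arrays. Psme3 encodes PA28 gamma, a nuclear cap that lets the core cut proteins without ubiquitin. It was at -0.66, -0.60, 0.92 and 0.52 on replicates 1 to 4. The Cy5 channel was thus the brighter on all 4 arrays, whichever genotype it held. The fitted ratio was 0.04 ± 0.08 (adjusted p = 0.779 by limma), while the dye term was 0.68, with an unadjusted p of 0.000152 and an adjusted p of 0.125 in the same fit. On the 2 arrays with APPswe/PS1dE9 in Cy5 alone, the ratio was 0.72 and was called (adjusted p = 0.00267 by limma), and on the other two it was -0.63 and was not. The array has 1 probe for Psme3, which was singled out after its values were seen.

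Psme4 encodes PA200, a cap linked to the degradation of acetylated histones. It was at -0.54, -0.29, 0.16 and -0.04 on replicates 1 to 4, low on the arrays with APPswe/PS1dE9 in Cy3 (-0.18 ± 0.07, adjusted p = 0.197 by limma). Its second probe gave -0.46, -0.39, 0.46 and -0.05, the same split, with a smaller fitted ratio of -0.11 ± 0.10. The dye term of Psme4 had an unadjusted p of 0.0184.

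A like split between the dye orientations, with 1 sign on replicates 1 and 2 and the other on replicates 3 and 4, was found in 12 of the 36 genes, beside 18.5% of all features. In 9 the ratio was above 0 with APPswe/PS1dE9 in Cy3 and below 0 with it in Cy5, namely Psma7, Psmb4, Psmc1, Psmc3, Psmd2, Psmd3, Psmd4, Psmd7 and Psmd13. In 3, Psmb5, Psmb6 and Psme3, it ran the other way. The dye term had an unadjusted p under 0.05 in 4 members, Psmd3, Psmd7, Psme3 and Psme4, beside 15.1% of all features. After adjustment it passed in 0 features. The fit takes such a split into the dye term, so the SE of these genes covers only the spread between arrays of 1 orientation. The plot of both orientations places every member.

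**Figure D4:**
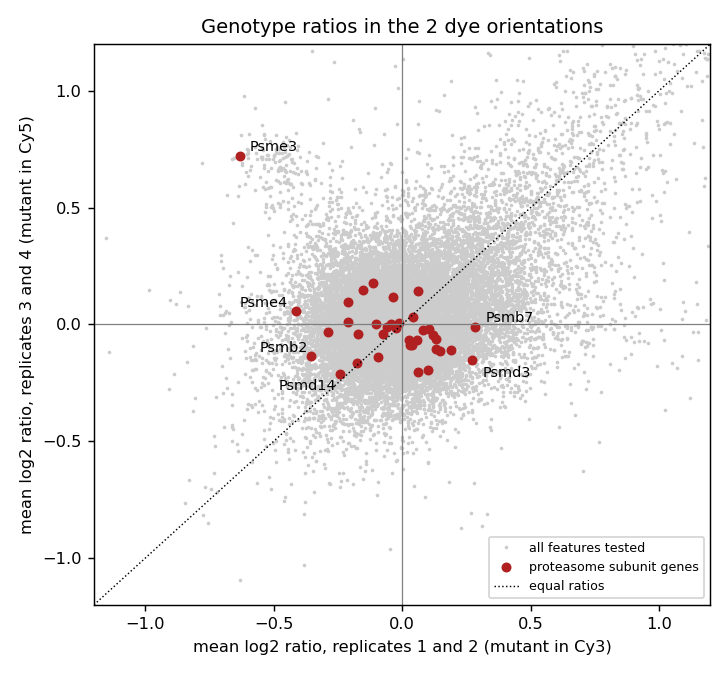
Mean log2 ratio of APPswe/PS1dE9 over WT on replicates 1 and 2 (x axis) and on replicates 3 and 4 (y axis), for the 36 proteasome genes (red) and all features (grey). The dotted line marks equal ratios. Psme3 lies far from it, at -0.63 and 0.72, and Psmd14 lies near it, at -0.24 and -0.21; features beyond 1.2 on either axis are outside the frame.

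All 45 member probes passed the filter, with 1 probe for 27 genes and 2 for 9 genes. In the fit over all kept probes 0 of the 45 were called by limma, beside 8.75% of all 26953 probes tested, and the lowest adjusted p was 0.0936. The 2 probes of a gene differed by at most 0.14 in fitted ratio, the gap of Psmd10, whose second probe was at -0.11. This gap is as large as the highest fitted ratio of any member, 0.14 for Psmb7. In 4 of the 9 genes the probes fell on opposite sides of 0. Psmb5 was 1 of them, with a second probe at 0.35, 0.24, -0.15 and -0.15 on replicates 1 to 4, the reverse of its first probe on every array, and a fitted ratio of 0.07 ± 0.06. The dye-linked split of Psmb5 thus differed between its probes, while both gave genotype ratios within 0.08 of 0.

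Genes that build, assist or control the particle were measured beside it. Of the 20S assembly and regulator list, which holds the assembly chaperones Psmg1 to Psmg4 and Pomp, 0 of 6 measured genes passed, with a median of -0.08. Of the 26S-associated factors, among them the ubiquitin receptor Adrm1, the deubiquitinases Usp14 and Uchl5 and the shuttle proteins of the ubiquilin family, 0 of 11 measured genes passed, with a median of -0.03. The ubiquitin genes and ubiquitin-activating enzymes had 0 of 6 passing and a median of 0.02. Uba6, an alternative ubiquitin-activating enzyme named here after its values were seen, was at -0.41, -0.12, -0.37 and -0.19 on replicates 1 to 4 (-0.27 ± 0.08, adjusted p = 0.0818 by limma). All 4 arrays were below 0. It was called lower with processed signals (-0.60, adjusted p = 0.0383 by limma), with the authors' deposited table (-0.60, adjusted p = 0.0384), with median centring (-0.33, adjusted p = 0.0431) and without replicate 2 (-0.34, adjusted p = 0.0407). Median centring also called the ubiquitin ligase Ube3c (-0.34) and the ubiquilin Ubqln2 (-0.33) lower, which were at -0.21 and -0.18 in the loess fit.

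The NRF1 route comprised 5 genes. Nfe2l1, which encodes NRF1, was at -0.04 ± 0.07 (adjusted p = 0.777 by limma), and the genes for its processing, Ddi2, Ngly1 and Vcp, were at -0.12, -0.06 and -0.0044. Nfe2l2, which encodes the related stress factor NRF2, was the 1 gene of the list that passed. It was at 0.39, 0.65, 0.25 and 0.71 on replicates 1 to 4, and the fitted ratio was 0.50 ± 0.10 (adjusted p = 0.0260 by limma). All 4 arrays were above 0. Without replicate 3 or replicate 4 it did not pass (adjusted p = 0.0632 and 0.136 by limma), nor did it with the scanner's processed signals (adjusted p = 0.0837 by limma) or without the filter on dim probes (0.0843). The tissue-restricted subunits Psma8, of the testis, and Psmb11, of the thymus, have probes on the array that did not pass the filter on dim probes.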

How the data were processed

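Total RNA (100 ng per culture) was measured on 4 two-colour Agilent arrays, which lay on 1 slide with 1 scan, so no batch could be tested. Per the file headers, Feature Extraction 11.0.1.1 quantified the spots, with an array annotation on mm9. For every spot the authors deposited the median intensity of foreground and background and a processed intensity in each channel. The log10 ratio in the same deposited files is that of the processed signals, Cy5 to Cy3. Set against these, a deposited value table of 29350 spots held log2 ratios of the processed signals, APPswe/PS1dE9 over WT, with no centring.

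Median signals were corrected by normexp (offset 50) and loess in limma 3.58.1 (R 4.3.3), with control and outlier spots left out. A probe was kept (26954 were) if 1 genotype's channel was well above background on 3 or more of the 4 arrays, and the brightest probe stood for a gene. Accessions matched 27509 probes to 20887 RefSeq symbols (GRCm38.p6). The model in lmFit and eBayes had a genotype term and a dye term, with 2 residual and 4.12 prior degrees of freedom. Two-sided p-values were adjusted over all features (Benjamini-Hochberg). Single-channel signals were scaled between arrays by Aquantile after loess. Precision is limited by having 4 arrays. The code was tested on simulated data, in which 50 of 20543 features were changed at each size of log2 ratio. At a size of 0.25, 2 of the 50 were called in the right direction, and at 0.5, 45 were. Fewer features were changed there than were called in these data, so these shares may not hold here.

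All members could be named, and the highest, the lowest and the catalytic genes were given in full, as were Psmb8, Psmb9, Psmb10 and genes of other lists past the threshold. Members and lists were chosen with earlier results of these data known. The alternatives changed the signal, offset, normalization, filter, probe rule, dye term, outlier spots and arrays.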

Additional observations from a re-analysis of the deposited data

How the results depend on the processing

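Over 18 alternatives, the 36 proteasome genes gave 648 values and 3 calls. Median centring without loess called 2 members lower, Psmb2 (-0.36, adjusted p = 0.0241 by limma) and Psmd14 (-0.37, adjusted p = 0.0201), and the arrays with APPswe/PS1dE9 in Cy5 alone, chosen after seeing the data, called 1 (Psme3). The cause was not tested. The members' median became -0.19 with median centring and -0.082 with no centring or loess. The median of all features was -0.074 and 0.035 there, and -0.064 with processed signals and with the authors' deposited table.

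Of all features, 2170 were called. The total was 959 with processed signals, 963 with the deposited table, 1063 without the filter, 474 on replicates 2 and 4 alone (the arrays whose cultures both had Xist and neither the Y-linked Eif2s3y), 200 on the arrays with APPswe/PS1dE9 in Cy3, and between 376 (without replicate 4) and 2756 when 1 array was left out, with 547 without replicate 3. The share of higher calls was 78.3%, but 88.3% with no centring and 90.3% without the filter, and median centring called 1312 higher and 1313 lower.

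Of the 5 immunoproteasome genes, 1 of 3 measured was called when probes had to be above background in both channels on all arrays, and 1 on the Cy3 arrays. Over these and the other proteasome-related lists together, 4 of 33 genes were called, 7 with median centring, 2 with that stricter filter, 1 on the Cy3 arrays, and between 2 and 5 with 1 array left out, the 2 being without replicate 4. Psmb8 minus Psmb5 was 2.99 with processed signals and the deposited table and 2.24 with an offset of 16. Psmb9 minus Psmb6 was 2.16 and 2.16, and 1.66. The stricter filter left out Psmb8 and Psmb9, so it gave no value for these pairs.

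Each array pairs 1 culture of each genotype, and every test used this pairing through the ratio within an array. With 1 group of arrays, no further pairing was possible. Dim spots limit the ratios of Psmb8 and Psmb9. Of the 36 members, the dim Psme4 and Psmd9 were at -0.18 and -0.17 in the main fit. They were at -0.20 and -0.19 with an offset of 16, and at -0.33 and -0.29 with processed signals.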
